A study of Mus musculus with 2 samples.

Results

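The immediate early genes followed here were Fos, Fosb, Jun, Junb, Egr1, Egr2, Ier2, Atf3, Dusp1 and Nr4a1, 10 of the 19059 genes counted in every matrix. They were chosen by symbol after their levels, their detection and their co-detection across cell types and between treatments had been seen in these data. All of these measures are therefore given as a description. Calls on the 10 genes by fits over all genes are printed as counts beside those of all genes, and nothing is read from them. The tumors were grown from mouse glioblastoma stem cells (mGSC) of the genotype Trp53+/- and Nf1+/-, a cultured line placed into the brain of female C57BL/6J mice aged 6 to 8 weeks. The mice received vehicle or Xevinapant, an orally given SMAC mimetic that antagonizes inhibitor of apoptosis proteins, at 50 mg/kg daily for 7 days. Tumors of 4 mice per group were designed to be sequenced right after the last treatment, and both groups carried the same implanted line. The vehicle group was labelled as total RNA and the Xevinapant group as polyA RNA. Each group had its own pool and batch date, so pool, date and RNA label cannot be told apart from treatment. The deposited names of the Xevinapant matrices contain the word Vehicle. Groups follow the sample labels, and if these were exchanged every direction between the treatments would turn.

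Each group came as 4 matrices of unique molecular identifier (UMI) counts from fixed cells read through gene probes. The matrices held 4505 to 14728 barcodes and 71835789 to 300206053 UMIs, and 50669 of 56943 barcodes were kept after filters. Matrices 1 and 3 of vehicle, 1 and 2 of Xevinapant and 3 and 4 of Xevinapant were the pairs most alike, with differences of 1.20 to 2.38 times sampling noise. In the other 9 pairs within a group this multiple was 4.94 to 8.53. Each alike pair was joined, which left 3 vehicle samples (1+3, 2 and 4) and 2 Xevinapant samples (1+2 and 3+4). Matrices of a group shared droplet barcodes at 6.87% to 21.0% of the smaller matrix, and matrices of different groups at 0.738% to 3.39%. Cells were assigned by marker UMIs, which gave 38217 tumor cells, 1142 microglia, 613 macrophages, 568 fibroblasts, 277 neutrophils, 207 endothelial cells and 194 monocytes. The tumor gate rests on glial lineage genes such as Olig1, Olig2 and Pdgfra, so host precursors and astrocytes cannot be separated from implanted cells by it. A further 8562 barcodes passed no gate. The summed level of the tumor markers in the other types with at least 10 cells in a sample stood at 1.65% to 11.4% of that in the tumor cells of the same sample, a measure of tumor RNA or mixed droplets there that the gates themselves limit.

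Immediate early genes are transcribed within minutes of a stimulus, without new protein synthesis, from promoters that are already poised. Serum response factor (SRF) with its ELK partners, and CREB, are the best known factors that act on them. Fos, Fosb, Jun and Junb encode subunits of the transcription factor AP-1, Atf3 encodes a related leucine zipper factor, Egr1 and Egr2 encode zinc finger factors and Nr4a1 an orphan nuclear receptor. Dusp1 encodes a phosphatase that switches off MAP kinases, and Ier2 a small nuclear protein. In brain and in tumors they mark cells exposed to growth factors, to stress or to synaptic activity, and they can also be transcribed while living tissue is taken apart.

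Promoters are shown for 4 of the genes whose windows hold the letters of these factors, with the window taken up to the start of transcription from RefSeq on GRCm38.p6, 5′ to 3′. Capitals mark TGACG on either strand (the core letters of a CREB element, read as CGTCA on the other strand) and the CArG box to which SRF binds. Fos lies on chr12:85473640-85473889 (+), Egr2 on chr10:67537619-67537868 (+), Dusp1 on chr17:26508473-26508722 (-) and Nr4a1 on chr15:101266596-101266845 (+).
Fos: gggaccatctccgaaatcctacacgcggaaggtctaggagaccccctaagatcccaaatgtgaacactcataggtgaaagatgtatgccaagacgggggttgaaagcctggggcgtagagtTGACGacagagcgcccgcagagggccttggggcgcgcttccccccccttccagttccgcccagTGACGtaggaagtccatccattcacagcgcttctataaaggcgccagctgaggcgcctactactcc
Egr2: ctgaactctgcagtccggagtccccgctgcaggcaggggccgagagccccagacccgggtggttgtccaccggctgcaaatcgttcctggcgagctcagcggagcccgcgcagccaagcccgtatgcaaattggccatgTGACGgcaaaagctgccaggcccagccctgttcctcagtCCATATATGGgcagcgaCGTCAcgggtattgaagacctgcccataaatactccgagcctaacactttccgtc
Dusp1: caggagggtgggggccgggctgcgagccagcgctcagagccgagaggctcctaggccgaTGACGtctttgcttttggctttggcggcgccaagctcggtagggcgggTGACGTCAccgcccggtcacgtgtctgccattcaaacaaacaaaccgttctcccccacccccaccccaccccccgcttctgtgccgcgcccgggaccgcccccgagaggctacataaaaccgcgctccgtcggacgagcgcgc
Nr4a1: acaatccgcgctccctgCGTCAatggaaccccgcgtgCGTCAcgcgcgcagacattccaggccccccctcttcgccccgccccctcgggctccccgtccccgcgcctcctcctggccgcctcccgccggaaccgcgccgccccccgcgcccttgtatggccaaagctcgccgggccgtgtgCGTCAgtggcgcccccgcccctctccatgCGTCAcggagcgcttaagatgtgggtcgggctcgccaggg
Windows of 250 bases before to 50 after a start were given for 8 of the 10 genes, all but Egr1 and Ier2. TGACG stood in a window of 7 of the 8, Jun being the exception, and in 20.8% of the 32851 RefSeq windows of this length. The full palindrome TGACGTCA, which contains TGACG on both strands, stood in Dusp1 alone and in 1.79% of all windows. A CArG box stood in Egr2 alone (1.63% of all windows), and sequence outside the windows was not searched for any gene. TATAA stood in Fos, Junb and Egr2 (24.9%). Neither the AP-1 letters TGANTCA (7.81%) nor the EGR letters GCGTGGGCG (0.612%) stood in a window of the 8 genes. Egr2 has 5 annotated starts, and a match in any of its windows was counted. These are matches of letters and not shown sites.

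In tumor cells every one of the 10 genes stood higher in both Xevinapant samples than in all 3 vehicle samples. Levels are given as CPM, the UMIs of a gene scaled by all UMIs of the cell type in the sample. They depend on how many probes a gene has, so each gene is compared with itself across samples and cell types, and not with the other genes. The summed level of the 10 genes was 777, 635 and 683 CPM in vehicle samples 1+3, 2 and 4 and 1587 and 1358 CPM in Xevinapant samples 1+2 and 3+4. The mean went from 698 ± 72.3 (SD, n = 3) to 1472 ± 162 (SD, n = 2), a ratio of 2.11.

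The AP-1 genes held the largest and some of the smaller ratios in tumor cells. Fos stood at 99.5, 63.8 and 57.6 CPM in the vehicle samples and at 346 and 276 CPM in the Xevinapant samples. The ratio of the means was 4.22, and the lowest Xevinapant sample lay far above the highest vehicle sample. Fosb, its close relative, was rare throughout, at 2.72, 1.57 and 1.58 CPM in vehicle and 8.22 and 10.5 CPM in Xevinapant, a ratio of 4.79. Junb stood at 38.4, 26.7 and 21.3 CPM in vehicle and at 80.7 and 74.6 CPM in Xevinapant, a ratio of 2.70. Jun came to 166, 133 and 214 CPM in vehicle and 323 and 250 CPM in Xevinapant. Its ratio was 1.68, and vehicle 4 lay closer to Xevinapant 3+4 than to vehicle 2. Atf3 was at 13.6, 8.92 and 8.35 CPM in vehicle and at 27.2 and 24.0 CPM in Xevinapant, a ratio of 2.49.

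The zinc finger genes had nearly equal ratios. Egr1 stood at 125, 127 and 85.9 CPM in vehicle and at 260 and 263 CPM in Xevinapant. Egr2 stood at 9.76, 8.83 and 8.47 CPM in vehicle and at 21.4 and 20.4 CPM in Xevinapant, and both ratios were 2.32. Dusp1, the MAP kinase phosphatase, came to 70.1, 49.9 and 52.0 CPM in vehicle and 155 and 117 CPM in Xevinapant, a ratio of 2.37. Nr4a1 had 204, 177 and 193 CPM in vehicle and 316 and 250.5 CPM in Xevinapant, a ratio of 1.48. Ier2 had the lowest ratio, 1.45, at 47.5, 38.6 and 40.3 CPM in vehicle and 50.4 and 71.4 CPM in Xevinapant. For Ier2 the gap between the groups was small, and it closed when each matrix was counted as 1 mouse, with 46.0 CPM in Xevinapant matrix 2 and 49.5 CPM in vehicle matrix 3.

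**Figure D1:**
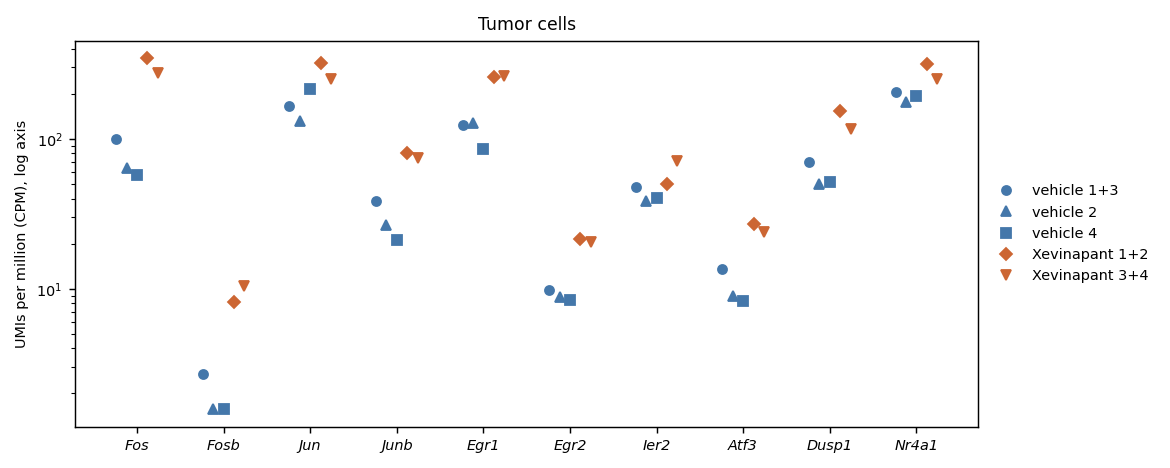
Level of each of the 10 genes in tumor cells, in CPM on a log axis, with 1 point per sample (blue, 3 vehicle samples; orange, 2 Xevinapant samples). Both Xevinapant points lie above all vehicle points for each gene, widely for Fos and Fosb and narrowly for Jun and Ier2.

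The samples of the groups thus did not overlap, higher in Xevinapant, for 10 of the 10 genes, beside 18.9% of the 14486 genes tested in tumor cells (11.7% did not overlap and were lower). The median log2 ratio of the 10 genes in edgeR's fit was 1.19, and that of all genes tested was 0.00. edgeR's quasi-likelihood test called 0 of the 10 genes, and 0% of all genes, at an adjusted p of 0.05, while 1636 genes had an unadjusted p under 0.05. DESeq2 called 7 of the 10 genes beside 1.89% of all genes, and edgeR with each matrix counted as 1 mouse called 9 of 10 beside 4.75%. The genes were chosen on this contrast, so nothing is read from these counts.

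Fos took a larger share of the summed level in Xevinapant, and Nr4a1 a smaller one. Fos took 12.8%, 10.0% and 8.43% of the UMIs of the 10 genes in vehicle tumor cells and 21.8% and 20.4% in Xevinapant tumor cells. Nr4a1 took 26.3%, 27.9% and 28.3% in vehicle and 19.9% and 18.5% in Xevinapant. The share of Egr2 stayed between 1.24% and 1.503% in all 5 samples.

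Across cell types the genes had different tops. The order is given for 7 types, and the rarer ones, such as 37 NK cells and 93 T cells, were not ranked. Neutrophils had the highest summed level, with a mean of 5629 ± 1126 CPM (SD, n = 4 samples of at least 10 cells), apart from monocytes at 2298 ± 383 (SD, n = 4) and macrophages at 1716 ± 412 (SD, n = 5). These means pool the treatments, and fibroblasts were lowest at 646 ± 120 (SD, n = 5), as they were within each treatment. The place of tumor cells turned with treatment. In vehicle their samples, at 635 to 777 CPM, lay below those of microglia at 975 to 1192 CPM and of endothelial cells at 971 to 1035 CPM. In Xevinapant the tumor mean of 1472 CPM stood beside 1456 CPM in microglia and 1695 CPM in endothelial cells, and tumor cells overlapped with both. Neutrophils led for Junb at 927 CPM and for Dusp1 at 1624 CPM, apart from the next type in each case. They also had the highest mean of Jun at 1366 CPM, where their range of 677 to 1732 overlapped that of macrophages. The neutrophil values rest on 10 to 162 cells per sample with median UMIs of 1080 to 1681.

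Among the ranked types, Atf3 separated the 4 myeloid types from the others. Its mean was 424 CPM in macrophages, 346 in microglia, 350 in monocytes and 581 in neutrophils, against 42.0 in endothelial cells, 16.4 in tumor cells and 6.57 in fibroblasts. The lowest ranked myeloid sample, a monocyte sample at 169 CPM, lay above the highest endothelial sample, at 105 CPM, while neighbours among the 4 myeloid types overlapped. Unranked dendritic cells, also myeloid, had 0 to 127 CPM of Atf3 on 3 to 9 cells per sample. Nr4a1 had another order, in which microglia and macrophages were low. It stood at 228 CPM in tumor cells, 168 in endothelial cells, 39.3 in microglia, 30.2 in fibroblasts and 18.1 in macrophages, and the lowest endothelial sample (127 CPM) lay above the highest microglial sample (72.5 CPM). Monocytes had 389 CPM of Nr4a1 and neutrophils 337 CPM, both overlapping with tumor cells. The neutrophil samples varied from 56.8 to 902 CPM.

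For several other genes the order of the type means turned with treatment. Egr1 in vehicle was higher in neutrophils, at a mean of 189 CPM, than in tumor cells, at 113 CPM, without overlap. In Xevinapant it was higher in tumor cells, at 261 CPM, than in neutrophils, at 128 CPM, also without overlap. The neutrophil values in vehicle rest on 8 and 2 UMIs of Egr1 in samples 1+3 and 4. Macrophages had the lowest mean of Egr1 among the 7 types in both treatments. Unranked NK cells had 229.5 and 591 CPM of Egr1 in the Xevinapant samples, on 10 and 13 cells. After neutrophils, endothelial cells had the highest mean of Dusp1 in both treatments, 354 CPM in vehicle and 445 CPM in Xevinapant. The lowest mean of Dusp1 was that of tumor cells in vehicle, at 57.3 CPM beside 88.8 CPM in fibroblasts. In Xevinapant it was that of fibroblasts, at 79.9 CPM beside 136 CPM in tumor cells. In vehicle the samples of these types overlapped, with tumor cells up to 70.1 CPM and fibroblasts from 68.7 CPM. Junb was lowest in tumor cells at 48.3 CPM, below fibroblasts at 119 CPM with a gap between the samples. Among the 5 types compared between treatments, macrophages had the highest mean of Jun in both, 537 CPM in vehicle and 614 CPM in Xevinapant. Of these 5 types, macrophages had the highest mean of Fos in vehicle, at 222 CPM against 73.6 CPM in tumor cells. Tumor cells had the highest in Xevinapant, at 311 CPM against 166 CPM in macrophages. Fibroblasts had the lowest mean of Fos among these types in both treatments. Ier2 was highest in endothelial cells among the same 5 types in both treatments, at 122 CPM in vehicle and 149.6 CPM in Xevinapant. No order is read for Egr2 and Fosb, whose fibroblast means moved with single samples. Fibroblast Egr2 stood at 79.7 CPM in vehicle 4 against 1.96 to 32.6 CPM in the other samples, and fibroblast Fosb at 34.8 CPM in Xevinapant 3+4 against 1.53 to 6.89 CPM.

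**Figure D2:**
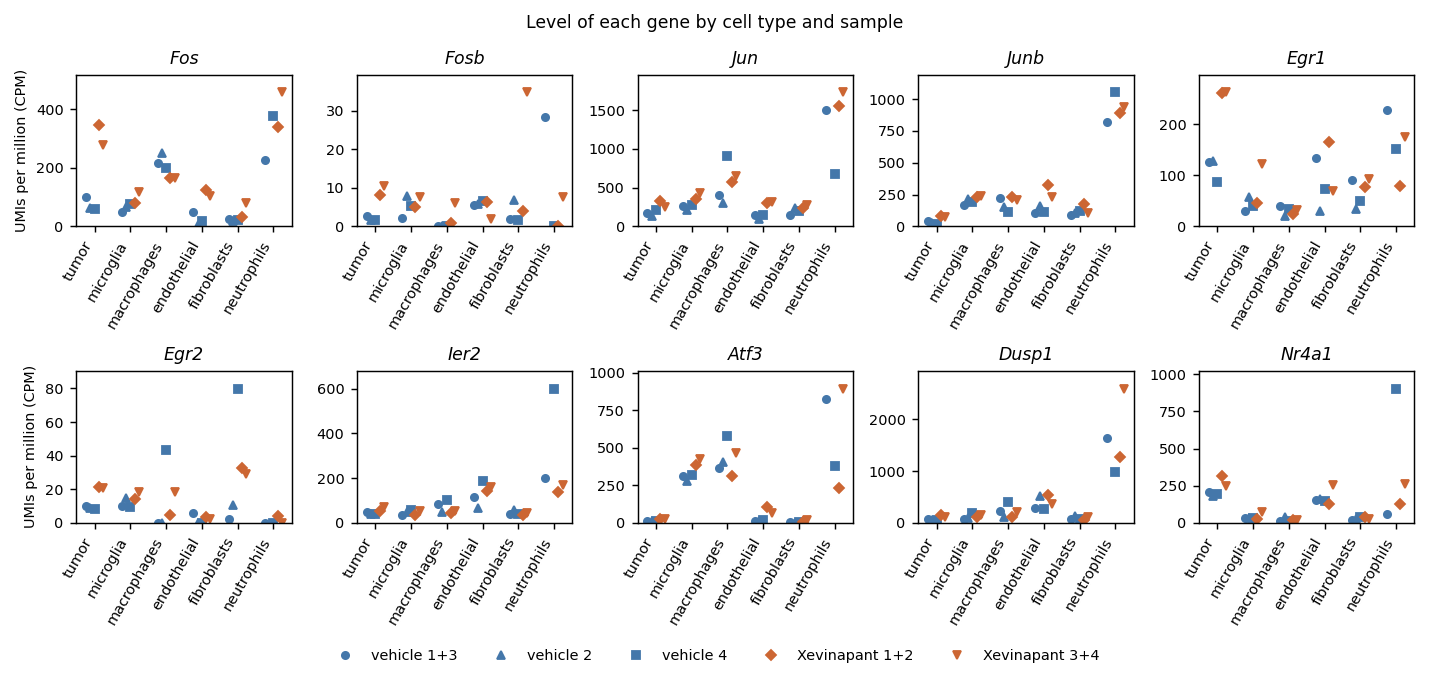
Level of each gene in CPM (linear axes from 0, 1 panel per gene) in tumor cells, microglia, macrophages, endothelial cells, fibroblasts and neutrophils, with 1 point per sample of at least 10 cells (blue, vehicle; orange, Xevinapant). Atf3 is high in the myeloid types and low in tumor cells and fibroblasts, Nr4a1 is low in microglia, macrophages and fibroblasts and spread widely in neutrophils, and Dusp1 and Junb are highest in neutrophils.

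In microglia, the resident macrophages of the brain, 4 of the 10 genes did not overlap and were higher in Xevinapant, beside 10.5% of the 10588 genes tested there. Atf3 stood at 313, 281 and 318 CPM in vehicle and at 388 and 428 CPM in Xevinapant. Jun stood at 266, 205 and 279 CPM in vehicle and at 349 and 434 CPM in Xevinapant. The ratios were 1.34 and 1.57, and the gaps between the groups were wider than those of Fos and Junb. Fos (49.98, 64.9 and 74.8 CPM in vehicle, 78.3 and 116 CPM in Xevinapant) and Junb (167, 213 and 194 CPM in vehicle, 228 and 239 CPM in Xevinapant) were separated by less. Egr1 and Nr4a1 were high in Xevinapant 3+4 alone, at 121 and 72.5 CPM, and overlapped with vehicle through Xevinapant 1+2 at 46.4 and 24.6 CPM. The summed level was 975, 1009 and 1192 CPM in vehicle and 1280 and 1632 CPM in Xevinapant. edgeR called 0 of the 10 genes, and 0% of all genes, with 628 genes at an unadjusted p under 0.05. DESeq2 called 0 of the 10 genes and 0.00944% of all genes. Without the low-count filter edgeR called Jun and Egr1, beside 0.61% of all genes.

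Endothelial cells, which line the vessels, showed 4 of 8 genes without overlap and higher, beside 14% of the 5132 genes tested, and 0 lower, beside 10.4%. Fosb and Egr2 had too few UMIs to be tested. Jun stood at 150, 93.6 and 145 CPM in vehicle and at 299 and 314 CPM in Xevinapant. Junb stood at 106, 158 and 112 CPM in vehicle and at 328 and 232 CPM in Xevinapant. The ratios were 2.37 and 2.23, and both Xevinapant samples lay well above the vehicle samples. Fos had 9, 1 and 3 UMIs in the vehicle samples, which is 49.99, 5.85 and 19.8 CPM, and 39 and 52 UMIs, or 124 and 105 CPM, in the Xevinapant samples. Atf3 had 2, 2 and 3 UMIs in vehicle (11.1, 11.7 and 19.8 CPM) and 33 and 31 UMIs in Xevinapant (105 and 62.4 CPM). Dusp1 and Nr4a1, both high in this type, overlapped between the groups. edgeR called none of the 10 genes beside 0.0195% of all genes, which was Ackr1, named after its value was seen, and 454 genes had an unadjusted p under 0.05. DESeq2 called 0.0779% of all genes. Without the low-count filter edgeR called Fos, Jun, Junb and Atf3, beside 0.596% of all genes. Without vehicle 1+3 edgeR called Fos, beside 0.168% of all genes.

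In macrophages Fos was lower in Xevinapant. It stood at 217, 251.2 and 198 CPM in vehicle, on 76, 26 and 23 UMIs, and at 165 and 167 CPM in Xevinapant. This was lower without overlap, beside 8.07% of the 6954 genes tested. Of the 7 genes tested no other was free of overlap, and 0 were higher in Xevinapant, beside 13.1% of all genes. A count of 1 of 7 is near the share of all genes, so nothing is read from it. Fosb, Egr2 and Nr4a1 had too few UMIs there. The summed level was 1568, 1324 and 2380 CPM in vehicle and 1486 and 1823 CPM in Xevinapant. Vehicle 4, the highest, rested on 31 cells whose heat shock genes summed to 4207 CPM against 757 to 1007 CPM in the other 4 samples. Without vehicle 4 the log2 ratio of the summed level turned from -0.09 to 0.19. For Fos vehicle 4 was the lowest vehicle sample, so leaving it out could not make the groups overlap. edgeR and DESeq2 called 0 genes of any kind there, with 414 at an unadjusted p under 0.05 in edgeR. Without the low-count filter edgeR called none of the 10, beside 0.498% of all genes.

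Monocytes and neutrophils had 2 samples of at least 10 cells per treatment, and no fit over all genes was made for them. The share of all genes without overlap was not computed there either, so nothing is read from the genes listed as not overlapping. Their summed levels overlapped between the treatments. Jun was higher in Xevinapant without overlap in both types, at 224 and 351 CPM against 463 and 624 CPM in monocytes. In neutrophils Jun stood at 677 and 1505 CPM in vehicle, on 9 and 53 UMIs, against 1551 and 1732 CPM in Xevinapant. Junb and Ier2 were also higher without overlap in monocytes. Monocyte Atf3 was lower in Xevinapant, at 611 and 321 CPM in vehicle and 169 and 298 CPM in Xevinapant, and so was monocyte Egr2, on 5 and 11 UMIs in vehicle and 1 and 7 in Xevinapant. Neutrophil Ier2 was lower too, on 7 and 8 UMIs in vehicle, at 199 and 602 CPM, against 139.5 and 168 CPM in Xevinapant. The other genes of both types overlapped between the treatments.

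Fibroblasts had the lowest summed level and 1 of 8 genes without overlap and higher, beside 9.54% of the 9075 genes tested. This was Fos, at 23.6, 17.2 and 21.5 CPM in vehicle and 32.0 and 79.0 CPM in Xevinapant. Tumor marker RNA in fibroblasts stood at 8.06% to 11.4% of the tumor level, and tumor Fos at 346 and 276 CPM in Xevinapant. The part of tumor RNA in fibroblast Fos was not tested. The summed level was 487, 617 and 627 CPM in vehicle and 685 and 817 CPM in Xevinapant. Fosb and Atf3 had too few UMIs to be tested, with Fosb at 1, 2 and 1 UMIs in vehicle and 13 and 59 in Xevinapant. Egr2 varied widely among the vehicle samples, from 1.96 to 79.7 CPM. edgeR called 0 of the genes tested, with 554 at an unadjusted p under 0.05, DESeq2 called 0.176% of all genes, and edgeR with each matrix as 1 mouse 0.0803%. Without the low-count filter edgeR called Fos and Fosb, beside 1.32% of all genes.

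**Figure D3:**
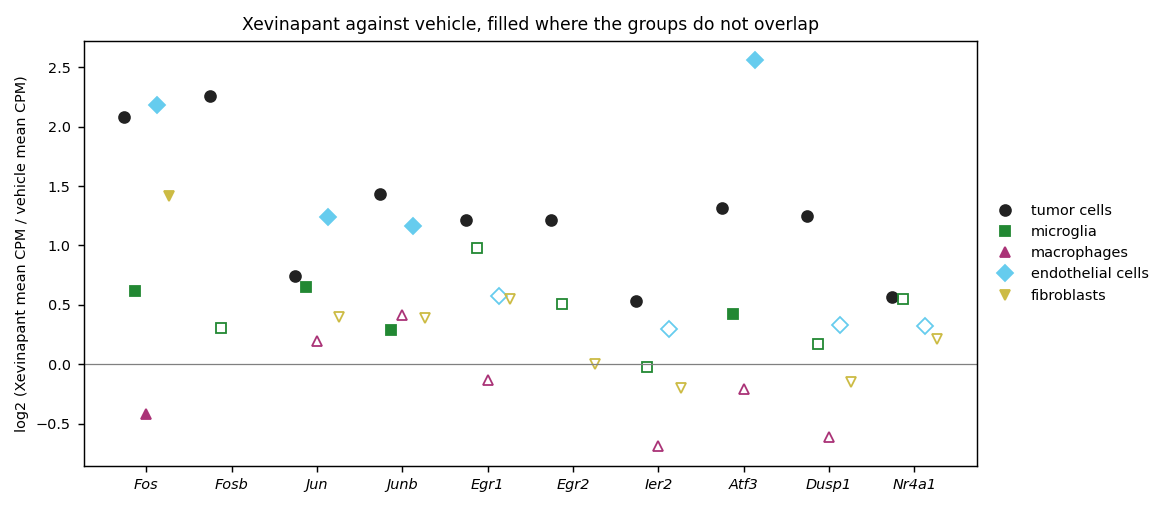
Log2 ratio of the mean Xevinapant level to the mean vehicle level for each gene with enough UMIs in tumor cells, microglia, macrophages, endothelial cells and fibroblasts, with filled points where no sample of one group lies within the range of the other. The tumor points are filled for all 10 genes, macrophage Fos is the filled point below 0, and endothelial Fos and Atf3 rest on 1 to 9 UMIs per vehicle sample.

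Detection was compared in cells thinned to 2000 UMIs, so that depth did not set it, and cells with fewer UMIs were left out. Of the tumor cells, 10.7%, 7.64% and 7.84% had a UMI of 3 or more of the 10 genes in the vehicle samples, and 24.1% and 21.5% in the Xevinapant samples. Without thinning these shares were 56.3%, 51.2% and 59.2% in vehicle and 70.2% and 73.3% in Xevinapant. Cells with none of the genes made up 38.3%, 42.4% and 36.4% in vehicle and 23.5% and 28.9% in Xevinapant. Cells with 6 or more were rare, at 0.797% ± 0.392 (SD, n = 3) in vehicle and 3.73% ± 0.0728 (SD, n = 2) in Xevinapant. The thinning left out 413 to 712 tumor cells per sample.

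Fos was detected in 11.3%, 8.54% and 7.69% of thinned vehicle tumor cells and in 25.5% and 21.4% of Xevinapant tumor cells. Nr4a1 was detected in 27.4% to 29.3% of vehicle cells and in 38.8% and 33.8% of Xevinapant cells. Both genes were detected more often in each Xevinapant sample. In thinned microglia 9.20%, 16.8% and 13.4% of vehicle cells and 21.5% and 21.6% of Xevinapant cells had 3 or more of the genes. Endothelial cells with 3 or more came to 16.5% ± 3.24 (SD, n = 3) in vehicle and 31.1% ± 1.56 (SD, n = 2) in Xevinapant, on 19 to 59 cells per sample, but the unthinned shares of 44.9% ± 16.5 and 53.2% ± 8.85 overlapped. In fibroblasts the thinned shares, 10.6% ± 4.84 and 12.1% ± 4.88, overlapped, and the unthinned shares, 32.5% ± 2.03 and 46.8% ± 4.04, did not. Unthinned, the shares were 40.5% ± 4.21 and 61.2% ± 9.50 in microglia and 48.9% ± 20.4 and 68.9% ± 0.451 in macrophages, neither overlapping. Thinned macrophages with 3 or more came to 20.2% ± 6.12 (SD, n = 3) and 31.3% ± 0.211 (SD, n = 2), without overlap, on 12 to 363 cells per sample, although their summed level did not differ in this way.

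**Figure D4:**
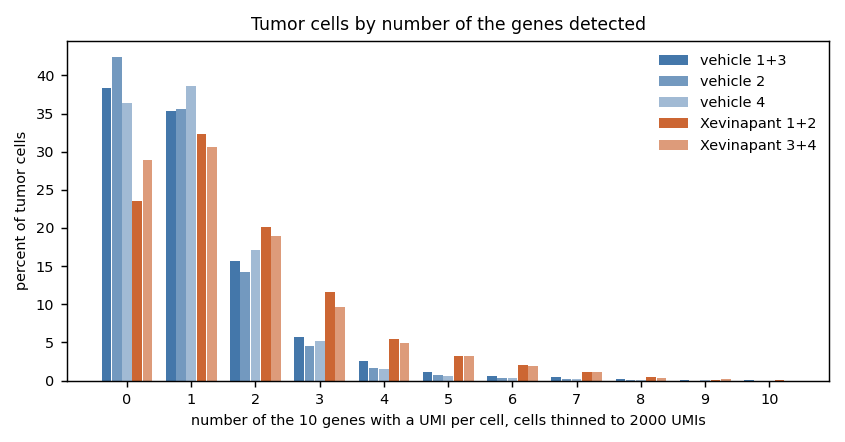
Percent of tumor cells (vertical axis) by the number of the 10 genes with a UMI (horizontal axis) after thinning each cell to 2000 UMIs, with bars for the 5 samples (blue shades, vehicle; orange shades, Xevinapant). The vehicle bars are taller at 0, and the Xevinapant bars are taller from 2 to 9 genes. All 10 genes were found in at most 2 cells of a sample.

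The genes were found together in the same cells in both treatments. For each of the 45 pairs a log2 odds ratio of co-detection was computed over thinned tumor cells, and 0 means that the pair met as often as their separate shares give. The median over pairs was 1.83, 1.55 and 1.54 in vehicle and 1.71 and 1.69 in Xevinapant, so co-detection overlapped between the groups. Between 44 and 45 of the 45 pairs lay above 0 in each sample. Detected independently, 3 or more genes would meet in 7.54%, 4.91% and 5.86% of vehicle and 22.7% and 19.3% of Xevinapant tumor cells. The observed shares were 10.7%, 7.64% and 7.84% in vehicle and 24.1% and 21.5% in Xevinapant. For 6 or more genes, independence would give at most 0.00738% in vehicle and 0.120% in Xevinapant. Observed were 0.511% to 1.24% in vehicle and 3.68% and 3.78% in Xevinapant. Fos with Fosb had the highest mean over samples, 3.71, followed by Fosb with Junb at 3.54, though as few as 5 cells of a sample carried either pair. Egr1 with Egr2, at 3.12, rested on at least 39 cells per sample. The lowest pair was Jun with Nr4a1 at 0.24, although these were widely detected. The other pairs with Nr4a1 ran from 0.48 with Dusp1 to 2.11 with Fosb. In microglia the median over pairs was 1.62, 1.85 and 0.92 in vehicle and 1.504 and 1.27 in Xevinapant, on 101 to 338 cells per sample. As few as 5 and at most 23 of the 45 pairs were seen in 5 or more microglia of a sample, so these medians rest mostly on rare pairs.

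Tumor cells with 3 or more of the genes had fewer UMIs before thinning than cells with none, with medians of 12264 to 16060 against 14164 to 18777. Their heat shock genes summed to 1853 to 2327 CPM against 1292 to 1474 CPM, and their median mitochondrial share was 0.574% to 0.916% against 0.748% to 1.076%. Cells with 3 or more of the genes thus had more heat shock RNA in each of the 5 samples.

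Tumor cells were also split by markers of glioblastoma states, counted after thinning, where 2 or more markers of a single range were needed. No range was set for OPC-like (oligodendrocyte progenitor-like) cells. The tumor gate itself rests on genes such as Olig1, Olig2 and Pdgfra, so cells of no range can be OPC-like. Another 1492 cells that met several ranges were left out. The gates and ranges were set after the data were seen, and they are ranges of marker counts rather than types. The mean summed level of the 10 genes was 770 CPM in cycling cells, 1043 in NPC-like, 1143 in cells of no range, 1445 in AC-like and 2195 in MES-like cells (n = 5 samples each). In MES-like cells, chosen by Ndrg1, Akap12 and Wwtr1, the level was 2257, 1050 and 1354 CPM in vehicle and 2719 and 3594 CPM in Xevinapant. Cycling cells had 622, 547 and 603 CPM in vehicle and 1130 and 947 CPM in Xevinapant. In AC-like cells, chosen by astrocyte genes such as Gfap and Aqp4, the level was 1269, 1110 and 877 CPM in vehicle and 1860 and 2109 CPM in Xevinapant. Each of these ranges, and the cells of no range, was higher in both Xevinapant samples, with ratios of 1.76 to 2.16. NPC-like cells overlapped, with a ratio of 1.048, and rested on 14 to 41 cells per sample.

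Genes differed in how they followed the ranges. Atf3 stood at 74.0 CPM in MES-like cells and at 9.02 CPM in cycling cells, and Fos at 490 and 85.8 CPM. Nr4a1 was spread more evenly, at 288 CPM in MES-like and 216 CPM in cycling cells. Many cells lay near the threshold of a range. Of the 2932 AC-like, 142 NPC-like, 348 MES-like and 15718 cycling cells, 1235, 120, 331 and 5735 had just 2 markers, and 7947, 3380, 7346 and 8075 cells had 1 marker of the range. The median count of the other ranges' markers was 0 in each of them. Cycling cells made up 45.5%, 49.1% and 50.8% of thinned tumor cells in vehicle and 34.1% and 39.7% in Xevinapant, so the range with the lowest level was also smaller in Xevinapant. The ratio of 1.76 within cycling cells and of 2.16 within cells of no range stood beside 2.11 for all tumor cells.

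**Figure D5:**
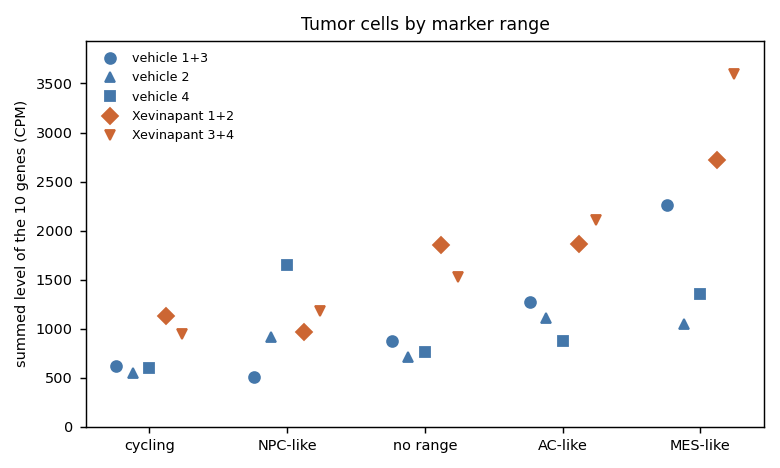
Summed level of the 10 genes in CPM (axis from 0) in tumor cells of 5 marker ranges, with 1 point per sample (blue, vehicle; orange, Xevinapant). The Xevinapant points lie above the vehicle points in the cycling, no range, AC-like and MES-like cells and are mixed with them in the NPC-like cells.

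Depth and cell state measures were set beside the tumor result. In tumor cells split by UMIs per cell into 5 ranges from 2000 upward, the ratio of the summed level was 2.03 to 2.39, and the groups did not overlap in any range. The summed level was higher in cells of few UMIs, at 851 CPM in vehicle and 2033 CPM in Xevinapant from 2000 to 5000 UMIs, and at 640 and 1296 CPM from 40000 UMIs. The median mitochondrial share of tumor cells was 0.896%, 1.053% and 0.915% in vehicle and 0.668% and 0.772% in Xevinapant. The 9 heat shock genes summed to 1405 to 1491 CPM in vehicle and to 1478 and 1639 CPM in Xevinapant tumor cells, overlapping. Constitutive Hspa8 alone had means of 680 CPM in vehicle and 731 CPM in Xevinapant there. The sum thus says little about the inducible heat shock genes, which are given in the next paragraph. In microglia the 9 genes summed to 1114 to 1316 CPM in vehicle and 1420 and 1453 CPM in Xevinapant, without overlap. The part of mitochondrial share, of heat shock RNA and of tissue handling in the levels of the 10 genes was not tested, and handling times were not given in the sources used here.

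Among the heat shock genes in tumor cells, Hspa1a, Hspa1b and Hspb1 were higher in Xevinapant without overlap, beside 18.9% of all genes, and the other 6 overlapped. DESeq2 and edgeR with each matrix as 1 mouse called these 3, beside 1.89% and 4.75% of all genes, which edgeR on the 5 samples did not. Hspa1b, an inducible chaperone, stood at 25.8, 36.5 and 14.8 CPM in vehicle and at 90.4 and 64.5 CPM in Xevinapant, a log2 ratio of 1.55 (SE 0.35, adjusted p = 0.419 in edgeR's quasi-likelihood test). Hspa1a and Hspa1b are near-identical copies and can share reads. Hspa8, the constitutive and far more abundant relative, had a log2 ratio of 0.06 (SE 0.14, adjusted p = 0.878 in edgeR). In endothelial cells Hspa1b had at most 6.60 CPM in vehicle and 79.6 and 58.4 CPM in Xevinapant (adjusted p = 0.134 in edgeR).

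A list of 35 other immediate early genes was tested over all genes. In tumor cells edgeR called 0 of the 35 (adjusted p 0.403 or more), with 20 at an unadjusted p under 0.05, while 15 were called by DESeq2, beside 1.89% of all genes, and 15 with each matrix counted as 1 mouse, beside 4.75%, all higher in Xevinapant. The groups did not overlap for 23 of the 35, all higher, beside 18.9% of all genes. The median log2 ratio of the list was 0.71, and that of all genes tested was 0.00. Since none was called, the genes named here and in the next paragraph were chosen after their values were seen. Fosl2, a further AP-1 subunit, stood at 25.3, 20.6 and 15.2 CPM in vehicle and at 52.1 and 42.0 CPM in Xevinapant (log2 1.17, SE 0.22, adjusted p = 0.419 in edgeR). Ccn1, a matrix protein induced by serum, stood at 92.1, 83.6 and 93.4 CPM in vehicle and at 208 and 164 CPM in Xevinapant (log2 1.01, SE 0.14, adjusted p = 0.403 in edgeR). Cebpd, an inflammation-induced transcription factor, stood at 21.4, 16.4 and 20.9 CPM in vehicle and at 52.8 and 44.5 CPM in Xevinapant (log2 1.27, SE 0.16, adjusted p = 0.403 in edgeR).

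Not every gene of the list was higher. Jund, the AP-1 subunit that cells make without a stimulus, stood at 593, 515 and 559 CPM in vehicle and at 578 and 628 CPM in Xevinapant. Nr4a2, a relative of Nr4a1, stood at 18.8, 24.8 and 19.4 CPM in vehicle and at 25.7 and 19.8 CPM in Xevinapant. Btg2, Ier5, Ier5l, Dusp6 and Nfkbia also overlapped between the groups. Of the 6 upstream factors, Srf (114, 102 and 99.4 CPM in vehicle, 172 and 145 CPM in Xevinapant, log2 0.55, SE 0.13, adjusted p = 0.419 in edgeR), Elk1 and Mrtfa were higher without overlap, beside 18.9% of all genes. DESeq2 and edgeR with each matrix as 1 mouse called Srf alone of the 6, beside 1.89% and 4.75% of all genes. Creb1, Elk3 and Elk4 overlapped, with Creb1 at 96.9, 97.8 and 110 CPM in vehicle and 92.2 and 101 CPM in Xevinapant.

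In the other types the list behaved unevenly, and edgeR with its low-count filter called none of its genes. In endothelial cells 10 of 21 tested genes did not overlap and were higher, beside 14% of all genes, with 9 at an unadjusted p under 0.05 and a lowest adjusted p of 0.167. That gene was Fosl2, at 161, 246 and 191 CPM in vehicle and 404 and 431 CPM in Xevinapant (log2 1.03, SE 0.25). In fibroblasts 12 of 28 were higher without overlap and 1, Ier5, was lower, beside 9.54% and 10.3% of all genes, with 10 at an unadjusted p under 0.05. In microglia 6 of 27 were higher, beside 10.5%, among them Zfp36, which encodes a protein that destabilizes cytokine mRNA, at 214, 219 and 214 CPM in vehicle and 292 and 288 CPM in Xevinapant (log2 0.44, SE 0.14, adjusted p = 0.715 in edgeR). In macrophages 3 of 23 were higher and 1, Rhob, was lower, beside 13.1% and 8.07% of all genes. The median log2 ratio of the tested genes of the list was 0.23 in microglia, 0.24 in macrophages, 0.56 in endothelial cells and 0.44 in fibroblasts, and that of all genes lay between -0.01 and 0.01 in each. The genes named in this paragraph were likewise chosen after their values were seen.

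Genes with a pattern like that of the 10 genes were ranked in a pair of ways. Over 25 sums of sample and cell type, Tex2 (Pearson's r 0.84), Zfand5 (0.82), Exoc1 (0.81), Mta3 (0.81) and Ppp1r12c (0.80) followed the summed level most closely on the log2(CPM + 1) scale. The 5 sums of a sample share its library, and the 5 samples of a type share its base level, so these points are not independent. Within tumor cells thinned to 2000 UMIs, the number of the 10 genes detected was compared with the counts of 7844 genes over 35364 cells. Bhlhe40, a transcriptional repressor of the clock and hypoxia responses, had a Spearman's rho of 0.15 to 0.31 over the 5 samples. Vegfa, which encodes the vessel growth factor induced by low oxygen, had 0.13 to 0.34, and Ddit4, a stress-induced inhibitor of mTOR signalling, had 0.12 to 0.26. Dusp8 (0.10 to 0.14) and Irf2bp2 (0.10 to 0.20) came next. These correlations are weak, come from sparse counts and are given as a description.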

How the data were processed

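Counts of UMIs per gene and barcode were deposited by the authors without normalization, as 4 matrices per group from a probe-based 10x Genomics kit. The file headers name cellranger 7.1.0, whereas the labels name an earlier version, mm10 and Seurat. Matrices of the Xevinapant group are named Vehicle in the deposit, and the group label was followed. Barcodes were kept with 200 or more genes, a mitochondrial share up to 10% and a ratio of log10 gene number to log10 UMI number from 0.8. The barcodes of highest Scrublet score (scanpy 1.11.5), 3905 in all, were removed. Tumor cells needed 4 glial markers and 20 marker UMIs per 10000, and the other types 2 or 3 markers of their own and few of the others.

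Levels are counts summed per sample and type over all its UMIs, in samples of at least 10 cells. Sums were fitted in edgeR 4.0.16 (TMM scaling, low-count filter, quasi-likelihood test), and p-values were adjusted by Benjamini-Hochberg over all genes and called at 0.05. In simulated counts for tumor cells, 48% of genes changed by 1 log2 unit and 81% of those changed by 2 were recovered. At 1 log2 unit, 54% were recovered in microglia, 27% in macrophages, 25% in endothelial cells and 23% in fibroblasts. In the measured counts of tumor cells the same fit called 0 of 14486 genes. Fos and Fosb were not called there, although the log2 ratios of their mean levels were 2.08 and 2.26. How far the recovered shares hold for the measured counts was not tested. Alternatives were DESeq2 1.42.0, other scaling, no filter, each matrix as 1 mouse, stricter gates, no doublet removal, mean CPM per cell, thinning to 5000 UMIs and each sample left out. Tumor cells of 10000 to 20000 UMIs, with and without vehicle 4, were added after seeing the data.

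The 10 genes, the gates and the lists were chosen with earlier results of these data known. All 10 genes are named, other immediate early genes if called (at most 5 per type, and none was), and the 5 genes most alike by each of 2 correlations. Further genes were named after their values were seen, as said beside them. Nothing says which matrix is which mouse, so p-values measure only the spread between these samples, which may be technical. Python 3.11.15 (numpy 2.4.6, pandas 2.3.3, scipy 1.17.1) and R 4.3.3 were used.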

Additional observations from a re-analysis of the deposited data

Results flagged for a closer look

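In these samples Fos stood lower in Xevinapant in macrophages and higher in 4 other cell types. Each Xevinapant sample lay below each vehicle sample in macrophages and above each vehicle sample in tumor cells, microglia, endothelial cells and fibroblasts. The log2 ratio of Xevinapant to vehicle was higher than in macrophages by 2.50 in tumor cells, by 1.04 in microglia, by 2.60 in endothelial cells and by 1.84 in fibroblasts. These differences were not tested. Lower without overlap were 1 of the 7 tested genes in macrophages, beside 8.07% of all genes there, and higher without overlap 1 of 8 in fibroblasts, beside 9.54%. Both counts lie near these shares, so nothing is read from them. The macrophage values rest on 14 to 398 cells per sample and on 76, 26 and 23 Fos UMIs in vehicle samples 1+3, 2 and 4. The endothelial value rests on 1 to 9 Fos UMIs per vehicle sample. Tumor marker RNA stood at 8.06% to 11.4% of the tumor level in fibroblasts, 5.11% to 8.76% in microglia and 3.82% to 10.6% in endothelial cells. The part of tumor RNA in the Fos values of these types was not tested.

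The 8562 barcodes that passed no gate, which entered no comparison between types, also carried the genes. Their summed level was 978, 550 and 988 CPM in vehicle and 1929 and 1297 CPM in Xevinapant, a ratio of 1.92. Their median UMIs were 1038 to 2244 per barcode, and their heat shock genes summed to 1609 to 1855 CPM in vehicle and to 2105 and 2159 CPM in Xevinapant. The part of low depth or heat shock RNA in this was not tested.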

How the results depend on the processing

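Of the 174 alternatives computed, 150 kept the direction and the side of the threshold, or moved by less than the spread. In tumor cells the mean of CPM per cell gave a summed level of 1126 CPM (main 1008), and 15 other immediate early genes were called by DESeq2 and 15 with each matrix counted as 1 mouse (main 0). In microglia the mean of CPM per cell gave a log2 ratio of 0.71 (main 0.46). In macrophages the stricter gate gave a level of 2397 CPM (main 1716) and a log2 ratio of -0.87 (main -0.09), and the ratio reversed to 0.39 with the mean of CPM per cell, to 0.19 without vehicle 4 and to 0.053 without Xevinapant 1+2. In endothelial cells the level was 1402 CPM with each of 7 matrices as 1 mouse (main 1284), and the log2 ratio was 0.89 with the stricter gate and 0.97 with the mean of CPM per cell (main 0.75). Without the low-count filter edgeR called 2 of the 10 genes in microglia, 4 in endothelial cells and 2 in fibroblasts (main 0 in each), and 1 other immediate early gene in microglia (Ccn1), 1 in macrophages (Klf2), 3 in endothelial cells (Fosl2, Ier3 and Zfp36) and 5 in fibroblasts (Fosl1, Ier3, Klf2, Maff and Socs3). At 5000 UMIs the share of cells with 3 or more of the 10 genes was 32.8% in tumor cells (main 14.3%) and 41.4% in microglia (main 16.5%), since deeper cells show more genes. The causes of the other shifts were not tested.

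Leaving out single samples, the summed level ran from 863 to 1101 CPM in tumor cells, 1114 to 1278 in microglia, 1550 to 1814 in macrophages, 1147 to 1362 in endothelial cells and 604 to 686 in fibroblasts. The log2 ratio ran from 0.96 to 1.18 in tumor cells, 0.27 to 0.62 in microglia, -0.25 to 0.19 in macrophages, 0.63 to 0.86 in endothelial cells and 0.25 to 0.50 in fibroblasts. Of the 10 genes, edgeR called Fos in endothelial cells without vehicle 1+3 and none in the other such fits. The share of cells with 3 or more of the genes ran from 11.9% to 15.998% in tumor cells (12.5% without Xevinapant 3+4) and from 15.2% to 18.3% in microglia. The log2 ratio in tumor cells was 1.17 in cells of 10000 to 20000 UMIs and 1.14 there without vehicle 4. No paired analysis was made, since the groups were separate mice assigned at random. The vehicle sums of macrophages and endothelial cells held 103493 to 350202 UMIs, which leaves the rarer genes at a few UMIs.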
